A study of Mus musculus with 17 samples.

Results

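Cluster 8 is 1 of the 9 cell clusters that the authors made from scRNA-seq (single-cell RNA sequencing) of mouse brain. It is described here from its own 2 columns of the deposited table, 1 for the 6-OHDA-induced PD model and 1 for the NDST3-treated PD model, over all 26624 listed genes. In those columns 15210 and 17507 genes had a value above 0, and 18310 had one in either group. The cluster is known by Il23r, Trdc, Il1rl1, Kit, Ccr9 and Dusp10, and the study itself places it with dopaminergic neurons and their progenitors. Il1rl1 and Kit are genes of mast cells as well as of lymphoid cells.

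The mice were wild-type ICR animals that were 8 weeks old and, by the study's methods, female. In the 6-OHDA group, 6-hydroxydopamine, a toxin taken up by catecholamine neurons, was injected on 1 side into the substantia nigra and saline followed. In the 6-OHDA+NDST3 group the same lesion was followed 5 days later by NDST3, a heparan sulfate N-deacetylase and N-sulfotransferase, into the same site. The methods describe an AAV of serotype 9 with human NDST3 and a lentivirus with NDST3, both behind the CMV promoter, which is not limited to 1 cell type, and do not say which of them these mice received. Sham mice served as controls in bulk RNA-seq, H3K27ac CUT&RUN (a map of a histone mark of active promoters and enhancers) and ATAC-seq (a map of open chromatin). The sham library of scRNA-seq was not analysed here. With 1 scRNA-seq library per group, no difference between the groups in cluster 8 has a replicate check, and none was tested.

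Innate lymphoid cells and gamma delta T cells answer tissue cytokines quickly and need no earlier priming by antigen, unlike conventional alpha beta T cells. Group 2 innate cells carry the IL-33 receptor and make IL-5 and IL-13, while type 17 cells carry the IL-23 receptor and make IL-17 and IL-22. Both kinds are known from the meninges and other borders of the brain, where NK cells and T cells are found as well. Tissue dissociation for scRNA-seq takes up such cells together with those of the brain itself.

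A value in the table is the mean over the cells of a cluster of ln(1 + UMIs per 10000), where a UMI is 1 counted molecule. The header calls these values mean counts, and the natural-log scale was inferred from the values. How many cells stand behind a column is not in the table, so fewer cells with a transcript and a lower level per cell cannot be told apart. The study itself reports a marked increase of cells in cluster 8 in the NDST3-treated PD model, with no number in its text. The 2 columns are thus means over unlike numbers of cells. The smallest value above 0 in cluster 8 was 0.00152 in the 6-OHDA group and 0.000527 in the 6-OHDA+NDST3 group, and that gap bears on every low gene. The summed level of 4 Y-linked genes in cluster 8 was 0 in the 6-OHDA group and 0.132 in the 6-OHDA+NDST3 group. Over the 9 clusters it ran from 0 to 0.0079 and from 0.0354 to 0.354, while Xist in cluster 8 was at 2.09 and 1.96. Y-linked transcripts thus moved with the treatment group, although the mice are given as female, and their part in the differences between the groups was not tested.

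The 6 genes by which the cluster is known were all highest there, which is a description only, since they were chosen with these values known. Trdc, the constant segment of the T cell receptor delta chain, was at 0.352 in the 6-OHDA group and 0.161 in the 6-OHDA+NDST3 group. Cluster 4, the next cluster for this gene, had 0.212 and 0.0423. Il23r, which encodes the IL-23 receptor chain of type 17 cells, was at 0.260 and 0.129, against 0.0816 and 0.0201 in cluster 4. In the other 7 clusters neither Trdc nor Il23r passed 0.0262 in any column.

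Il1rl1, the IL-33 receptor of group 2 innate lymphoid cells and mast cells, was at 0.183 and 0.170 in cluster 8 and at 0.0972 and 0.0573 in cluster 4. Kit, the stem cell factor receptor, which mast cells carry too, was at 0.211 and 0.115, against 0.110 and 0.0220. Ccr9, a chemokine receptor for homing to the gut and thymus, was at 0.216 and 0.118, and cluster 9 came next with 0.0918 and 0.0471. Dusp10, a phosphatase of the kinases p38 and JNK, was the most abundant of the 6 genes at 0.542 and 0.636. Cluster 4 had 0.476 and 0.428 for it. In the 6-OHDA+NDST3 column 5 of the 6 were lower and Dusp10 was higher, and in cluster 4 all 6 were lower.

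**Figure D1:**
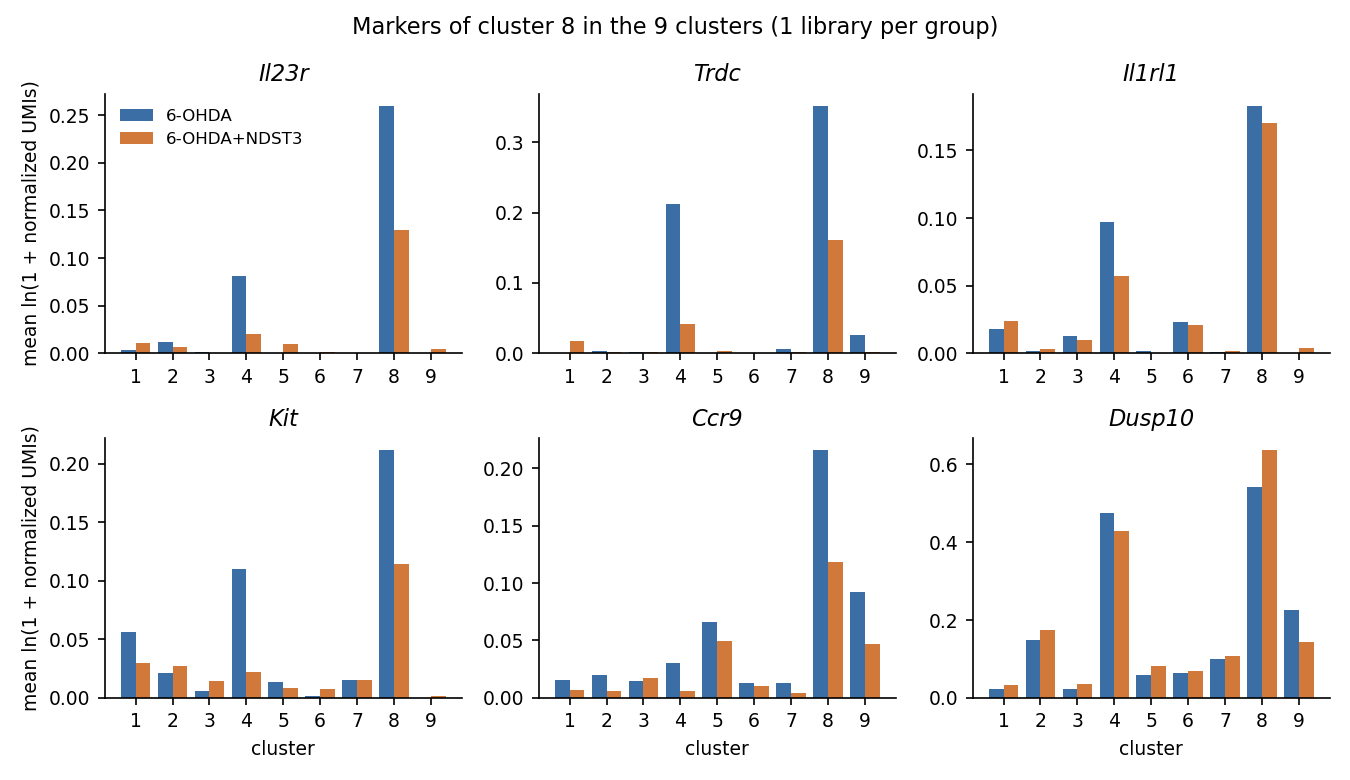
Each panel plots 1 gene as the mean of ln(1 + UMIs per 10000) on the y axis for the 9 clusters on the x axis, with 1 bar per group and no error bar because each group is 1 library. Cluster 8 has the tallest bars in all 6 panels, and cluster 4 is the next for every gene but Ccr9, where cluster 9 is next.

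Start regions of 3 genes are shown, since chromatin regions listed for Il23r and Tmem176b are described further on and Il1rl1 has 2 separate starts. They are RefSeq promoters of GRCm38.p6, 250 bases before to 50 bases after the start, written 5′ to 3′ along the gene. Capitals mark 3 motifs searched on both strands. The first was AGGTCA, which nuclear receptors bind. The second was GATAAG, known for binding by the family of Gata3. The third was GGAAGT, which the family of Ets1 binds. Il23r lies on the minus strand at chr6:67491806-67492105, Il1rl1 on the plus strand at chr1:40429320-40429619 and chr1:40439379-40439678, and Tmem176b on the minus strand at chr6:48841325-48841624. RefSeq lists 3 windows for Tmem176b, and the 1 shown is the only one that held a match. It overlaps a window of Tmem176a, which is read in the opposite direction.
Il23r: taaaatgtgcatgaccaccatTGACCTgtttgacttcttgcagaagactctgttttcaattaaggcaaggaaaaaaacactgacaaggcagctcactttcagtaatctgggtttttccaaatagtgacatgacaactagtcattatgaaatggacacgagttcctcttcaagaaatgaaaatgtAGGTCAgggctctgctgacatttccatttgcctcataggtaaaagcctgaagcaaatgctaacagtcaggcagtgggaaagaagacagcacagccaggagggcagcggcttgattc
Il1rl1, first start: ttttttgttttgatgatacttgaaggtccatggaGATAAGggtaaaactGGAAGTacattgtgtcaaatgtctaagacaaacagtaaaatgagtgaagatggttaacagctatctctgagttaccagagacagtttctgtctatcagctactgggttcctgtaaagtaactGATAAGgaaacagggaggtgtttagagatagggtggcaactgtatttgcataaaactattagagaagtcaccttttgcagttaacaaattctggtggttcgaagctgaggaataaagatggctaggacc
Il1rl1, second start: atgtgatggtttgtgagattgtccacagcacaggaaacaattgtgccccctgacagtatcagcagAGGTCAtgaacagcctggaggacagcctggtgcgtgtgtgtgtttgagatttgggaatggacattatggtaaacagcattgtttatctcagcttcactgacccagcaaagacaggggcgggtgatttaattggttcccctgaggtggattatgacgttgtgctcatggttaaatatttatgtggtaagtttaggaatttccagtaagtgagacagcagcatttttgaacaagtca
Tmem176b: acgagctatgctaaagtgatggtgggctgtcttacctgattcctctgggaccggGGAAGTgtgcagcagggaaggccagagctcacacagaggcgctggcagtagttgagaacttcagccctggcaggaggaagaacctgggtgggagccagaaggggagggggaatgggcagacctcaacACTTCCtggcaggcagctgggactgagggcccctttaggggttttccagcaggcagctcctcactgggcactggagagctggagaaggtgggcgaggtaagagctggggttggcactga
The Il23r window held AGGTCA 2 times, the first Il1rl1 window GATAAG 2 times and GGAAGT 1 time, the second Il1rl1 window AGGTCA 1 time and the Tmem176b window shown GGAAGT 2 times. Of all 32817 RefSeq windows of this length, 16.3% held AGGTCA, 7.45% GATAAG and 23.8% GGAAGT. These matches describe letters in a window and not bound sites. Windows were listed for 9 of the 10 genes looked up, and Trdc had none.

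No gene stood far above the other clusters in cluster 8. Of the 5885 genes at 0.1 or more in both of its columns, 101 (1.72%) had their highest mean of both groups there. In each of the other 8 clusters the same share was between 8.50% and 39.8%. The largest lead over the next cluster was 0.195 for Gm20186, a predicted gene, at 0.642 and 0.434. Elsewhere the largest lead ran from 1.45 for Ccl4 in cluster 6 to 3.99 for Igkc in cluster 9. Genes leading by more than 0.25 numbered 0 in cluster 8 and 78 to 757 in the others. The next cluster was cluster 4 for 59 of the 101 genes and cluster 9 for 13.

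**Figure D2:**
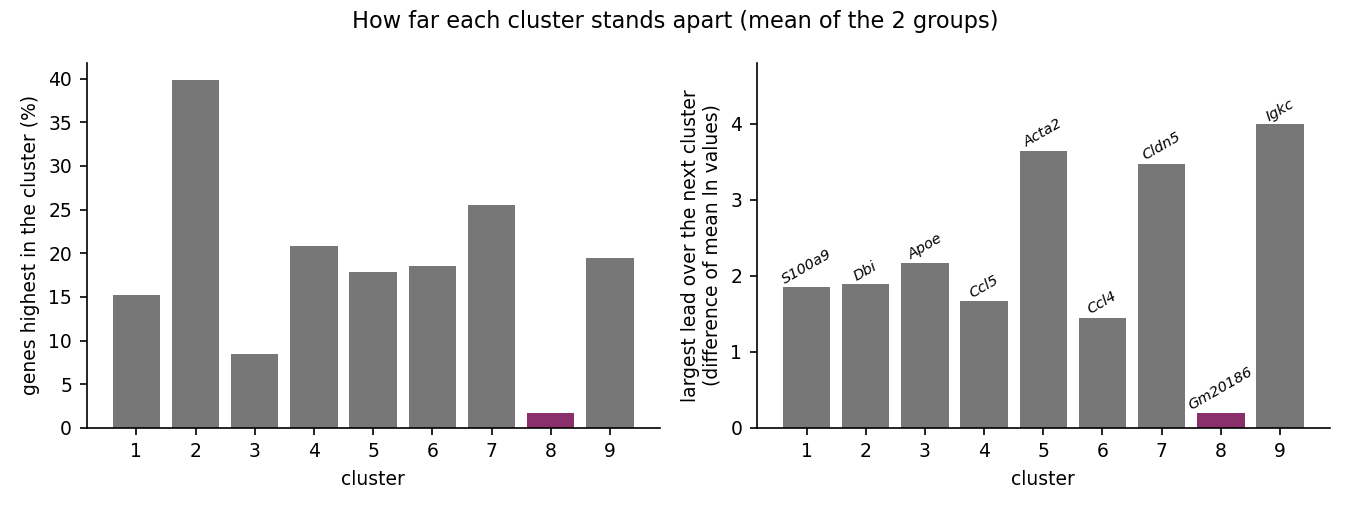
The left panel plots, per cluster, the percent of genes at 0.1 or more that were highest in that cluster, and the right panel plots the largest lead over the next cluster as a difference of mean ln values, with its gene named. Cluster 8, in colour, has the lowest bar in both panels, at 1.72% and 0.195.

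Of the 20 largest leads 10 were in the lymphoid lists, the 6 genes above included. The other 4 were Ncr1, the NK receptor NKp46, at 0.477 and 0.107, Tcrg-C4, a gamma chain constant segment, at 0.239 and 0.111, Il2ra, the IL-2 receptor alpha chain, at 0.357 and 0.317, and Calca, which encodes calcitonin and CGRP and is made by some group 2 innate cells, at 0.169 and 0.102. The 10 in none of these lists included Tnfrsf25, the receptor for the cytokine TL1A, at 0.170 and 0.117, Clnk, a signalling adaptor of immune cells, at 0.300 and 0.154, and Ramp3, a partner of receptors of the calcitonin family, at 0.442 and 0.439. The rest were Nrip1, Tmem229b, Grm8, Paxbp1, Podnl1, Gm20186 and Ccnd3. With the 6-OHDA columns alone 190 genes led and 19 of these 20 were among them, Ccnd3 being the exception. With the 6-OHDA+NDST3 columns alone 149 led, all 20 included.

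Group 2 genes were present at low levels. Of 15 listed, 5 were at 0.1 or more in both columns and 9 were highest in cluster 8. Il13 was at 0.129 and 0.0442 and Il5, the eosinophil growth factor, at 0.0654 and 0.0270, while cluster 4 had 0 for both in the 6-OHDA group and 0.00808 and 0.00438 in the 6-OHDA+NDST3 group. Areg, which encodes the repair factor amphiregulin, was at 0.196 and 0.0931. Gata3, the main regulator of group 2 cells, was at 0.399 and 0.298 and thus lower than in cluster 4, which had 0.576 and 0.416. Rora, another regulator of these cells, was at 1.61 and 1.41. Cluster 4 had 1.94 and 1.78 for it and cluster 2 had 1.51 and 1.63, so it does not mark group 2 cells alone in this tissue.

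Type 17 genes had 7 of 14 at 0.1 or more and 6 highest in cluster 8. Their cytokines were rare, with Il17a at 0.0894 and 0.0434, Il17f at 0.0499 and 0.0105 and Il22 at 0.0257 and 0.0126. The most abundant members were Tmem176a, at 0.776 and 0.395, and Tmem176b, at 0.836 and 0.466, a pair of membrane channel genes. Another cluster reached 1.53 and 1.70 for these, so they do not mark lymphoid cells alone in this tissue.

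Gamma delta genes had 3 of 11 at 0.1 or more and 7 highest in cluster 8. Cd163l1, a scavenger receptor of type 17 gamma delta T cells, was at 0.218 and 0.0543, and Trdv4 at 0.136 and 0.0294. Of NK and group 1 innate genes, 13 of 17 were at 0.1 or more, but only 5 were highest in cluster 8 and 10 were highest in cluster 4. Those 5 were Ncr1, Klrb1c, Klra8, Gzma and Itga2. Joined, the innate and gamma delta lists have 40 genes, of which 15 (37.5%) were at 0.1 or more, beside 22.1% of all genes, and 22 (55.0%) were highest in cluster 8, beside 4.01% of all genes. The 40 include 4 of the genes by which the cluster is known, and without them 18 of 36 were highest there. Mast cell and basophil genes, described further on, had a larger share, with 9 of 10 highest in cluster 8. Only 1 of those 10 was at 0.1 or more in both columns. Since the clustering used these genes, the shares are a description.

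Alpha beta T cell genes were, as a list, more abundant than these. All 14 listed were at 0.1 or more, with a median of 0.816 beside 0.0865, 0.147, 0.0981 and 0.292 for the group 2, type 17, gamma delta and NK lists. Single members of the other lists were as high, such as Rora, given above. Cd3g was at 1.04 and 1.56, Trac, the T cell receptor alpha constant segment, at 0.536 and 1.03, and Trbc2 at 1.19 and 1.51. All 14 were highest in cluster 4, where their median was 1.44, and second in cluster 8. Elsewhere the highest median of this list was 0.0246. The label "innate-like" covers genes among the leads but not the lymphoid list with the highest median, so the cluster keeps its number here and is given no cell type.

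Dopaminergic and neuronal genes were nearly absent. Th, the rate-limiting enzyme of dopamine synthesis, and Pitx3, Foxa2, Lmx1a and Kcnj6 were listed at 0 in both columns, and Slc6a3, the dopamine transporter, was at 0 and 0.00377. Of 16 dopaminergic genes only Nr4a2 reached 0.1, and of 12 neuronal and 13 neural precursor genes none did, with 5 and 7 at 0 in both columns. Of the 16 dopaminergic genes, 2 (12.5%) were highest in cluster 8, at levels under 0.1, beside 4.01% of all genes. No neuronal or neural precursor gene listed was highest there. Nr4a2, which T cells express on activation as well, was at 1.15 and 1.14. Zeb1 was at 1.68 and 1.59 and Camk4 at 1.43 and 1.53. The study names the cluster by these genes. All 3 were higher in cluster 4 than in cluster 8, and neither Nr4a2 nor Zeb1 was higher in the NDST3-treated column of cluster 8.

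Over 12247 genes the profile of cluster 8 was closest to that of cluster 4, with r = 0.977, followed by cluster 9 with 0.898 and cluster 3 with 0.833. The other 5 lay between 0.670 and 0.804, and its own 2 columns had r = 0.988. All columns share the expression common to every cell, so these r values are a description. Among the 10 genes furthest below cluster 4, Ccl5, a chemokine of effector T cells, was at 1.11 and 1.13 against 2.56 and 3.02, and Nkg7, a cytotoxic granule protein, at 0.984 and 0.737 against 1.88 and 2.16. Among the 10 furthest above it, Cd74, the invariant chain of MHC class II, was at 0.955 and 1.55 against 0.300 and 0.713. Tyrobp, a signalling adaptor of NK and myeloid cells, was at 1.47 and 1.05 against 0.850 and 0.271. C1qa, a complement gene of microglia and macrophages, was at 1.04 and 1.20 against 0.621 and 0.575.

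For most genes that set cluster 4 apart from any other cluster, cluster 8 lay between. Over the 7 other clusters its share of such genes, those that differed by 0.5 or more, ran from 84.1% to 96.7%. Of 834 genes that differed by 0.5 or more between cluster 4 and cluster 3, where Apoe leads, cluster 8 lay between for 804 (96.4%). The other clusters lay between for 49.6% to 70.1% of the same genes. Of 1016 genes that differed as much between cluster 4 and cluster 6, where Ccl4 leads, it lay between for 982 (96.7%), and the others for 60.1% to 74.8%. Its median position was 23.8% of the way from cluster 4 to cluster 3, 28.7% of the way to cluster 9 and between 10.3% and 21.4% of the way to the other 5. These genes were picked for a gap from cluster 4, and cluster 8 is the cluster most like cluster 4 (r = 0.977). A cluster so like cluster 4 can be between for most such genes by that choice alone. The shares of the less alike clusters are no measure of this, so all of these shares are a description and cannot show a mixed profile. Of 7 microglial genes, 6 were at 0.1 or more in both columns of cluster 8. Their median in cluster 8 was 0.213, with 0.0467 in cluster 4 and 1.53 in the cluster where it was highest. Cells that held RNA of more than 1 cell could not be looked for in a table of means, so their part was not tested.

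Between the groups, 6765 genes had a mean of 0.1 or more in at least 1 cluster 8 column. Of them 52 (0.769%) were higher by 0.25 or more in the NDST3-treated PD model and 55 (0.813%) were lower by as much. The median difference was 0.00785. By this count of 107 cluster 8 came after cluster 9 with 361 and cluster 4 with 228, and ahead of the other 6 clusters with 16 to 50. In the 6-OHDA columns, clusters 9, 4 and 8 had 11238, 12914 and 15210 genes above 0. Cluster 1 had 14689 and the rest had 16432 to 21716. The ranking may thus follow how thin a column is, which was not tested, and it does not order the clusters by response.

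Alpha beta T cell genes were on the higher side. The largest difference was that of Ctla4, a brake on T cell activation, at 0.586 in the 6-OHDA group and 1.23 in the 6-OHDA+NDST3 group. Themis, a T cell receptor signalling protein, was at 0.295 and 0.781, Cd3e at 0.870 and 1.30, and Tnfrsf4, the costimulatory receptor OX40, at 0.171 and 0.624. All 14 alpha beta T cell genes were higher and 6 passed 0.25, with a list median of 0.238, and in cluster 4 13 were higher with a median of 0.246. Cd4 was at 0.132 and 0.370 in cluster 8 and at 0.257 and 0.279 in cluster 4, while Cd8a was at 0.182 and 0.331 against 0.504 and 1.25. Other T cell lists were mixed. Naive and central memory genes had 5 of 8 higher with a median of 0.0485, and in cluster 4 had 7 of 8 lower. Regulators of lymphoid development had 7 of 17 higher and 10 lower, with a median of -0.0225. Furthest apart among these regulators were Tox, a regulator of T cells, at 0.962 and 1.41, and Zbtb16, the regulator PLZF of innate-like T cells, at 0.539 and 0.253.

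Innate genes were on the lower side. The minimum of 0.1 in either column lets a low gene in only through the group where it is high, so directions are counted here over every listed gene, with no minimum. All 17 NK and group 1 genes listed were lower in the NDST3-treated PD model and 5 passed 0.25, with a list median of -0.179. In cluster 4 the same list had 13 lower and 4 higher, with a median of -0.0452. Of these genes Ncr1 has its values above, Xcl1, a chemokine for dendritic cells, was at 0.649 and 0.341, and Klrk1, the receptor NKG2D, at 0.585 and 0.319. The other two past 0.25 were Fcer1g and Tyrobp, which myeloid cells express as well and which were lower in 7 and 8 of the other 8 clusters. Of gamma delta genes 10 of 11 were lower, with a median of -0.0808, of type 17 genes 12 of 14, with -0.0512, and of group 2 genes 13 of 15, with -0.0236. Tmem176a and Tmem176b alone among these 3 lists passed 0.25, and they were lower in 8 and 7 of the other 8 clusters too. The innate and gamma delta lists joined had 35 of 40 lower in cluster 8 and 26 of 40 in cluster 4. Over all genes with a value in cluster 8, 7208 of 18310 were lower (39.4%), with a median of 0.00215.

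**Figure D3:**
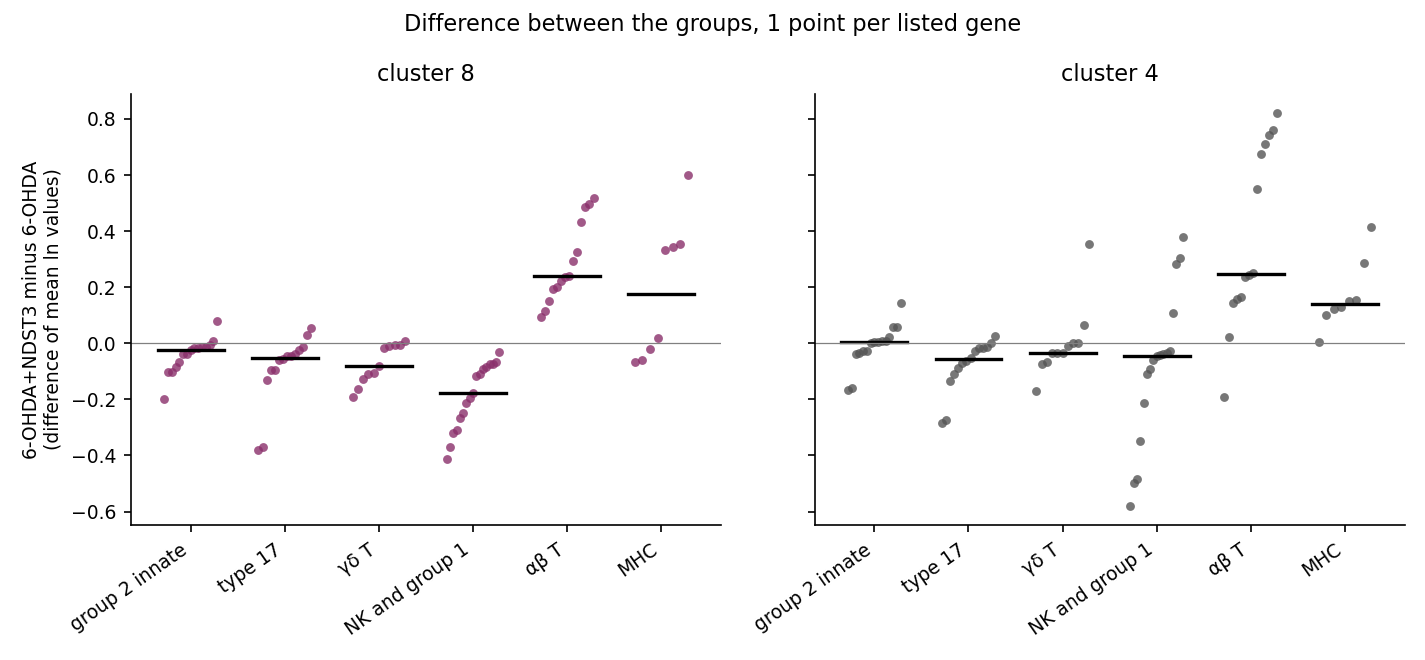
Each point is 1 listed gene, the y axis is the difference of mean ln values (6-OHDA+NDST3 minus 6-OHDA), the x axis is the gene list, the line is the list's median, and the right panel plots cluster 4. In cluster 8 every NK gene lies below 0 and every alpha beta T cell gene above 0, while in cluster 4 there are 4 NK genes above 0.

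The chemokine receptor Cxcr6, a marker of resident lymphocytes, differed in direction between the clusters. It was at 1.03 and 0.724 in cluster 8 and at 1.20 and 1.77 in cluster 4. Gzmb, Klrd1, Prf1 and Nkg7 likewise were lower in the NDST3-treated column of cluster 8 and higher in that of cluster 4. Klrd1, an NK receptor chain, was at 0.461 and 0.377 against 0.617 and 0.995.

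Among the other genes furthest apart on the higher side, Hif1a, the oxygen-sensing factor, was at 0.704 and 1.20, and Inpp4b, a lipid phosphatase, at 1.85 and 2.28. On the lower side were Ern1, the endoplasmic reticulum stress sensor IRE1, at 1.16 and 0.667, Dusp5 at 1.49 and 1.02, Gpr183, an oxysterol receptor that guides lymphocytes, at 1.39 and 0.982, and Satb1, a chromatin organiser in the naive T cell list, at 1.66 and 1.26. Ern1 differed by -0.488 in cluster 8 and by -0.488 in cluster 4, while Dusp5 differed by -0.465 and by -0.0248. Dennd4a, Mpp7 and Isy1 were also among the 10 lowest, with Mpp7 at 0.908 and 0.458.

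**Figure D4:**
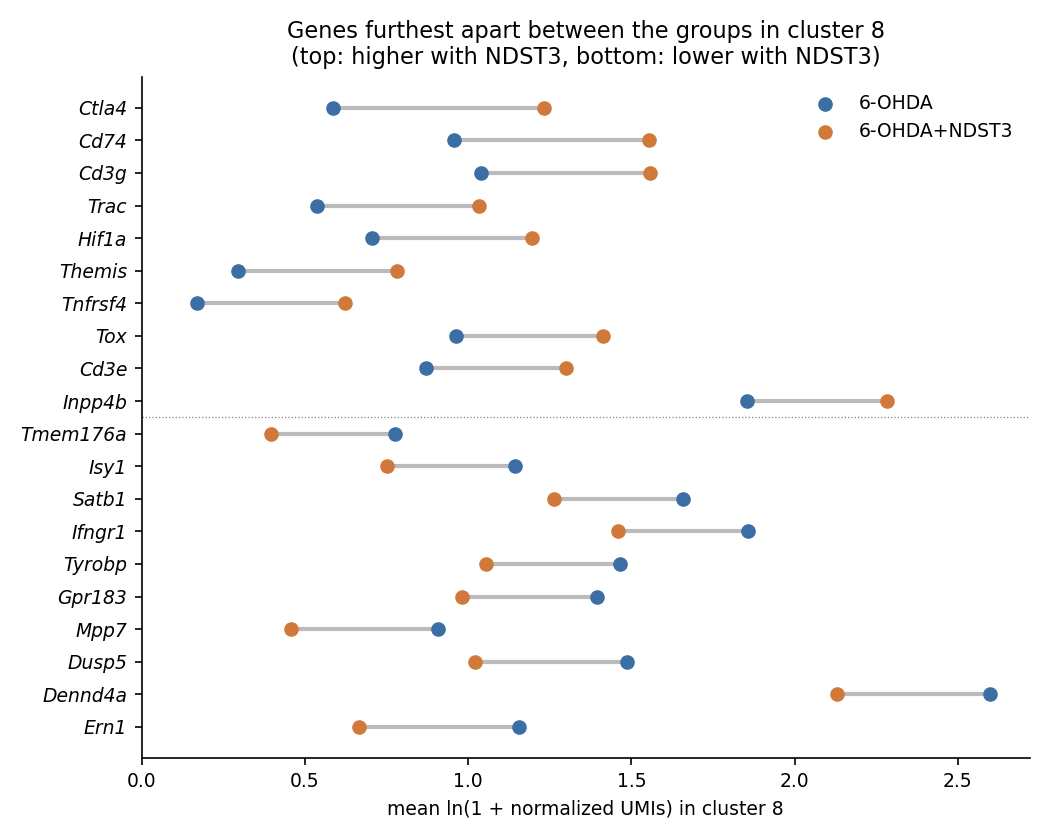
The x axis is the mean of ln(1 + UMIs per 10000) in cluster 8, with 1 row per gene and 1 dot per group (1 library each), and the 10 genes with the largest positive and negative differences are drawn. Ctla4 at the top goes from 0.586 to 1.23 and Ern1 at the bottom from 1.16 to 0.667.

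MHC class II genes were also higher, and here cluster 8 was not alone. H2-Aa was at 0.527 and 0.871, H2-Ab1 at 0.446 and 0.778 and H2-Eb1 at 0.243 and 0.596, and with Cd74 they made 4 of 8 MHC genes past 0.25. The median difference of the list was 0.175 in cluster 8 and positive in each of the others, up to 1.01 in cluster 3. B cell genes were higher for 9 of 9 listed, with a median of 0.0292 and Igkc at 0.0413 and 0.226. Mitochondrial transcripts, a sign of RNA quality, were higher for 13 of 13, with 6 past 0.25 and a median of 0.230, whereas in cluster 4 they were lower for 11 of 13. Ribosomal protein genes were lower for 64 of 78. The part of these in the lymphoid differences was not tested.

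Cytokine and receptor genes as a whole had no common direction. Of 28 cytokine receptors 13 were higher and 15 lower, with a median of -0.00663, and of 23 chemokine receptor and homing genes 12 were higher and 11 lower. Il7r, the IL-7 receptor that keeps lymphocytes alive, was at 1.01 and 0.896 in cluster 8 and 1.01 and 0.839 in cluster 4. Among cytokines, Tnfsf8, the ligand of CD30, was at 0.0565 and 0.419 and Csf2, which encodes GM-CSF, at 0.0882 and 0.0265.

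Bulk RNA-seq gives replicated values for lymphoid genes in whole tissue, from 2 sham, 1 6-OHDA and 2 6-OHDA+NDST3 libraries of 51003699 to 70533326 counts. The study describes its replicates in general as animals or cultures of their own, but gives no n for these libraries, so the p-values measure the spread between these samples, which may be technical. For 6-OHDA there was 1 library, whose spread was taken from the other groups. In bulk tissue too, fewer cells of a type and less RNA per cell cannot be told apart. Of the 87 genes in the lymphoid lists 54 were listed and tested among 19300, and a call is an adjusted p under 0.05 in edgeR's quasi-likelihood test. Every gene in the deposited bulk counts had 1 count or more in each library. The remaining lymphoid genes, Cd3e, Ncr1, Il13 and Il17a among them, were not in these counts. The 54 therefore do not stand for the lymphoid lists as a whole.

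After the lesion 19 of the 54 were higher than in sham and 5 lower, where 18.8% and 17.1% of all genes were called. The median log2 fold change was 1.12 over the 54 and -0.00245 over all genes. The 54 include genes that other clusters hold more of, so these counts and this median do not speak for lymphoid cells alone. In scRNA-seq, cluster 1 had 3.04 and 2.89 for Fcer1g and 3.48 and 3.39 for Tyrobp. Cluster 8 had 1.17 and 0.855 for Fcer1g and 1.47 and 1.05 for Tyrobp. Il7r had its highest mean of both groups in cluster 8, but by only 0.0270 over cluster 4. It was at 1.011 and 0.896 in cluster 8 and at 1.014 and 0.839 in cluster 4, so it does not speak for cluster 8 alone. Fcer1g, an adaptor shared by NK cells and myeloid cells, had 387 and 264 counts in sham, 4438 in 6-OHDA and 1273 and 2029 in 6-OHDA+NDST3. It was higher after the lesion by 3.93 ± 0.46 (log2, SE; adjusted p = 0.00847). Il2rg, the common gamma chain of lymphoid cytokine receptors, had 63 and 56, 715, and 162 and 378 counts, a rise of 3.77 ± 0.56 (adjusted p = 0.0104). Il7r had 60 and 65, 366, and 65 and 140 counts, a rise of 2.75 ± 0.50 (adjusted p = 0.0155). In each of these the 6-OHDA library was above every library of the other groups. With either sham library left out, no gene was called in this comparison.

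Of the 6 genes by which cluster 8 is known only Il1rl1 was called after the lesion. It had 34 and 32 counts in sham, 115 in 6-OHDA and 98 and 73 in 6-OHDA+NDST3, a rise of 1.99 ± 0.41 (adjusted p = 0.0212). Trdc had 16 and 30, 48, and 19 and 54 counts, and its 6-OHDA+NDST3 libraries lay far apart (log2 fold change after the lesion 1.30 ± 0.70, adjusted p = 0.203). Il23r had 13 and 12, 9, and 11 and 10 counts, and per library total the groups overlapped (log2 fold change -0.27 ± 0.58). Kit had 2216 and 2887, 1022, and 2561 and 1508 counts, and brain neurons express it as well. Its 6-OHDA library was the lowest (log2 fold change -1.10, adjusted p = 0.0581).

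With NDST3 after the lesion, 2 of the 54 were higher than in 6-OHDA and 3 lower, where 9.06% and 6.59% of all genes were called. The median was -0.62 over the 54 and 0.00287 over all genes. Tmem176b had 2427 and 2219 counts in sham, 11088 in 6-OHDA and 4090 and 5872 in 6-OHDA+NDST3. It rose by 2.44 ± 0.30 after the lesion (adjusted p = 0.00862) and differed by -1.36 ± 0.30 with NDST3 (adjusted p = 0.046), which is the direction it had in cluster 8. Another cluster holds more of it, so the bulk values do not speak for cluster 8 alone. Ahr and Ets1 were the other two lower genes, at -0.93 ± 0.20 (adjusted p = 0.0462) and -1.06 ± 0.21 (adjusted p = 0.0412). None of the 5 was called without either sham library or without 6-OHDA+NDST3 replicate 1.

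Gata3 and Thy1, a surface protein of T cells and neurons, were higher with NDST3. Gata3 had 1113 and 1580 counts in sham, 152 in 6-OHDA and 1240 and 722 in 6-OHDA+NDST3, a log2 fold change of -2.92 ± 0.40 after the lesion (adjusted p = 0.00934) and a rise of 2.48 ± 0.39 with NDST3 (adjusted p = 0.0341). Midbrain neurons express both genes, and in cluster 8 Gata3 was lower in the NDST3-treated column. Trac, high in cluster 8 with NDST3, had 164 and 196, 83, and 154 and 243 counts and was not called (1.05 ± 0.40, adjusted p = 0.126). Between 6-OHDA+NDST3 and sham, edgeR called 0 of the 54 and 0% of all genes higher or lower. At an unadjusted p under 0.05 there were 9 of the 54 higher and 1 lower, beside 9.82% and 4.39% of all genes, and DESeq2 called 6, all higher, beside 4.16% higher and 0.999% lower of all genes.

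**Figure D5:**
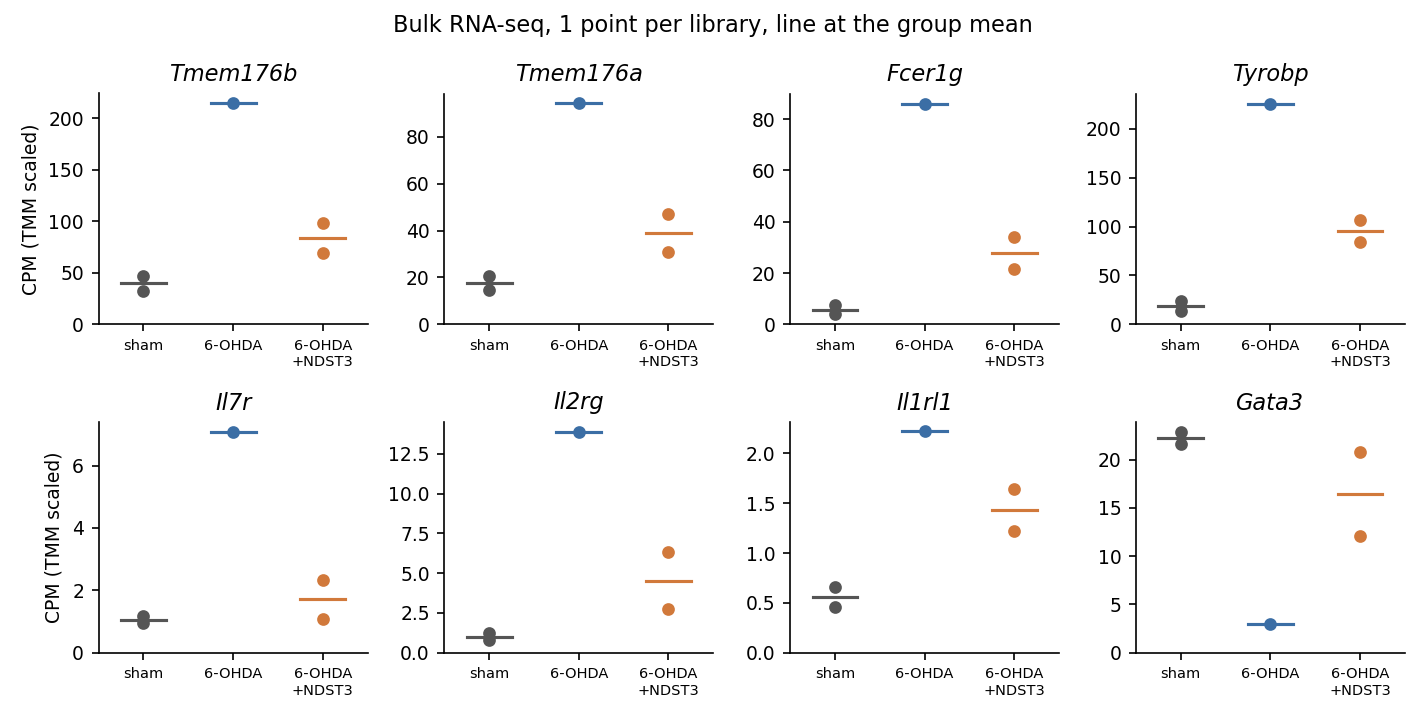
Each panel plots 1 gene in bulk RNA-seq as CPM scaled by TMM factors on the y axis, with 1 point per library in 3 groups on the x axis and a line at the group mean. In 7 panels the 6-OHDA library is the highest point and in that of Gata3 it is the lowest.

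Chromatin at lymphoid genes was read from regions of the deposited tables, 1 column per group, with no replicate values and a normalization that the sources used here do not give. Distances to a start are the deposited ones and could not be checked. Only 3.81% of H3K27ac and 10.5% of ATAC regions lay within 2000 bases of the RefSeq start of their own gene. H3K27ac regions with a deposited distance within 1000 bases of a start were listed for 8 of the lymphoid genes, with 14 regions. All 14 were higher in the 6-OHDA+NDST3 column than in the 6-OHDA column, as were 96.3% of all 11424 regions. ATAC regions were listed for 8 genes with 10 regions, of which 7 were higher, beside 58.9% of all 3537. The Il23r region, at -969 bases from the start, had a signal of 9.80 in sham, 3.50 in 6-OHDA and 6.50 in 6-OHDA+NDST3. The Tmem176b region of ATAC, at -48 bases, had 32.25, 32.75 and 36.68, and its H3K27ac region, at 445 bases, had 16.59, 17.90 and 24.86. The Cd3e region had 36.99, 68.25 and 57.03. With signals of whole tissue, none of these can be assigned to cluster 8.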

How the data were processed

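Bulk RNA-seq, H3K27ac CUT&RUN, ATAC-seq and scRNA-seq of mouse brain were used, with groups taken from the sample titles. The members and gene lists were chosen with earlier results of these data known.

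The authors processed scRNA-seq with Cell Ranger on mm10 and Seurat, with limits on genes per cell and on mitochondrial content, and grouped the cells into 9 clusters. The deposited means per cluster and group are on a natural log scale, as inferred from the values. Cells per cluster were not in the table, and no doublet caller could be run. Rows named by a date, 26 in all, were left out. Genes were named by the size of their lead over the next cluster (20 largest) and of their difference between the groups (10 largest each way, mean of at least 0.1), and from 35 lists with 414 entries. A difference of 0.25 was counted. Directions of lists were counted over every listed gene, a choice made after seeing the data.

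The authors trimmed reads with Trimmomatic, aligned them with HISAT2 and deposited a read count per gene from StringTie. Counts were tested with edgeR 4.0.16 in R 4.3.3 over all 5 libraries, with TMM factors, its default filter and Benjamini-Hochberg adjustment. Errors are the fold change divided by the square root of F, with 2 residual degrees of freedom. On simulated data for 6-OHDA against sham over 19148 genes, 85.5% of 200 changed genes were recovered with 3 false calls. There all changed genes had the same size of change and all genes the same relative spread, unlike real genes. These rates therefore check the code and do not carry over to the calls above. DESeq2 1.42.0, other scaling, no filter, a replicate block and leaving out each replicate were alternatives.

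The authors deposited CUT&RUN and ATAC-seq signal per region, 1 column per group, which pools the 2 CUT&RUN libraries of a group. Only 3.81% of H3K27ac and 10.5% of ATAC regions lay within 2000 bases of the RefSeq start of their own gene in GRCm38.p6, so the deposited distances were used and no region position is given. Columns of the authors' own comparisons were not used.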

Additional observations from a re-analysis of the deposited data

How the results depend on the processing

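In cluster 8 the count of 107 genes past 0.25 became 912 with a limit of 0.1 and 3 with a limit of 0.5, where all 3 were higher, and 590 genes passed a log2 ratio of 0.5 of back-transformed means, 376 higher and 214 lower. Centring on the median difference gave 47 higher and 60 lower, and dropping the minimum mean changed no count. Leading genes numbered 190 with the 6-OHDA columns alone and 65 of the 101 were among them. Among genes at 0.1 or more in either column, 21 of 24 innate and gamma delta genes were lower. Of these 24, 7 reached that minimum only through the 6-OHDA column and 2 only through the 6-OHDA+NDST3 column. Over every listed gene, a count added after seeing the data, 35 of 40 were lower. The deposited scRNA-seq, CUT&RUN and ATAC-seq values are 1 column per group, so no replicate could be left out of them.

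In bulk RNA-seq, leaving out the sham and 6-OHDA+NDST3 replicates in turn gave 0 to 27 called lymphoid genes after the lesion, 0 to 9 with NDST3 against 6-OHDA, and 0 against sham. The value 0 came without either sham library for both of the first comparisons, and without 6-OHDA+NDST3 replicate 1 for the second. A group left with a lone library is then assumed to vary like the other groups. With the replicate block the counts were 6, 0 and 0. The replicate numbers share nothing else in the labels, and same-numbered libraries deviated from their group means with r = -0.432 over 19300 genes. The sign of this r depends on how the libraries of a group are numbered, so it cannot show whether the numbers are crossed. The crossed replicate block, added after seeing the data, gave 26, 16 and 7. It was fitted to the same libraries that gave this r, so its counts cannot decide the pairing, which was not tested. DESeq2 called 15 with NDST3 against 6-OHDA and 6 against sham. RLE scaling gave 24, 5 and 0 and no filter 23, 4 and 0. No called gene turned its direction under any of these. The cause of the moved counts was not tested. Depth limits genes such as Il23r, with 9 to 13 counts per library.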

Other observations

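Mast cell and basophil genes were low in cluster 8 but higher there than in any other cluster for 9 of 10, the exception being Gata2. Cpa3, a mast cell protease, was at 0.0731 in the 6-OHDA group and 0.0879 in the 6-OHDA+NDST3 group, and Cma1, a mast cell chymase, at 0.0951 and 0.0597. Kit, counted in this list too, was the only member at 0.1 or more in both columns. Dendritic cell genes had 3 of 7 highest in cluster 8, namely Flt3 at 0.143 in the 6-OHDA group and just above 0.1 with NDST3, Clec9a at 0.0839 and 0.0565 and Xcr1 at 0.0153 and 0.0175. Siglech was at 0.400 and 0.266, below a level of 1.38 in another cluster.

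Of DNA repair and telomere genes 15 of 24 were higher and 9 lower with NDST3 in cluster 8 and none past 0.25. Parp1 was at 0.244 and 0.189, Atm, a kinase that senses DNA breaks, at 0.132 and 0.0981, and Rad50 at 0.240 and 0.235. Genes of the cell cycle were higher for 11 of 12, with Top2a at 0.107 and 0.145. Mouse Ndst3 was at 0.00663 and 0.00365 in cluster 8. Red blood cell transcripts were lower for 4 of 5, with Hba-a1 at 0.434 and 0.217. Immediate early and dissociation genes were lower for 11 of 18, with 1 past 0.25.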
